A study of Mus musculus with 6 samples.

Results

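The genes described here carry the interleukin-6 (IL-6) and interleukin-1 (IL-1) signals that switch on the acute phase genes of the liver. There are 10 of them, *Il6ra*, *Il6st*, *Il1r1*, *Jak1*, *Jak2*, *Stat3*, *Cebpb*, *Cebpd*, *Socs3* and *Il1rn*, a list of names drawn up with earlier results of these arrays known, though its rule uses no measured value. A probe set, a group of short oligonucleotides that reads 1 transcript on the array, was taken when the platform annotation gave it a member's symbol alone, and every such probe set was kept. All 10 genes were measured, by 14 of the 12422 probe sets compared, and the array as a whole reads 8251 genes by name. *Il6st*, *Jak2*, *Stat3* and *Socs3* have 2 probe sets each and the other 6 genes have 1.

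Liver RNA was compared between Liver Insulin Receptor Knockout (LIRKO) mice, genotype IR flox/flox albumin:CRE +, and their Flox littermates, genotype IR flox/flox albumin:CRE -. Both groups carry the floxed insulin receptor allele, and Cre is driven by the albumin promoter, which is active in hepatocytes, so that other liver cells keep the receptor. The mice were males of 2 to 3 months of a mixed genetic background of several strains, C57BL/6, FVB and DBA among them, on chow and not fasted. Each of the 3 Flox and 3 LIRKO Affymetrix MG-U74A-v2 arrays held RNA of 2 to 3 mice, so that p-values measure the spread between pools, and the number of arrays limits the precision.

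LIRKO 2 and LIRKO 3 stood apart from the other 4 arrays. When all probe sets were put into 10 equal groups by mean Flox level, the brightest group had a median difference from Flox of -0.01 on LIRKO 1, -1.09 on LIRKO 2 and -0.89 on LIRKO 3 on the log2 scale. The dimmest group had medians of -0.03, 0.23 and 0.15. Over 18 probe sets for spiked-in control transcripts, the median difference from Flox was -0.12, 1.14 and 1.10 on LIRKO 1, LIRKO 2 and LIRKO 3 in turn, and each Flox array lay between -0.15 and 0.14. For this reason the differences of the members are also given for LIRKO 1 alone and after each array was centred on the median of its level group. For *Insr*, the targeted gene, the Flox mean was 5.35 ± 0.118 and the LIRKO mean 5.81 ± 0.380 (SD, n = 3 each; adjusted p = 0.245 from limma), and it is not known here if this probe set reads the deleted part. Of the hepatocyte markers *Alb*, *Ttr*, *Apoa1* and *Tat*, none passed (*Ttr* at -1.88 and *Apoa1* at -0.54 had the smallest p), and their summed linear level ran from 47589 to 50462 on the Flox arrays and from 30463 to 50808 on the LIRKO arrays.

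In hepatocytes, IL-6 binds its receptor, encoded by *Il6ra*, and the pair engages the signalling chain gp130, encoded by *Il6st*. The Janus kinases JAK1 and JAK2 then phosphorylate STAT3, which enters the nucleus, induces acute phase genes and also induces *Socs3*, whose product shuts the receptor off. IL-1 acts through the receptor encoded by *Il1r1* on NF-kB and on the C/EBP factors encoded by *Cebpb* and *Cebpd*, and the product of *Il1rn* occupies that receptor without signalling.

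Because *Il1rn* had the smallest p of the 10 genes, the 250 bases before the second of its 3 annotated starts are shown. They are followed by the stretches in which a binding motif of STAT3, C/EBP or NF-kB was found before a member's start. No motif was found in the 250 bases shown. The *Il1rn* stretch lies past that second start and before the third. The sequences are those of RefSeq for GRCm38.p6, and capitals mark the motif.
Il1rn, chr2:24345041-24345290, + strand: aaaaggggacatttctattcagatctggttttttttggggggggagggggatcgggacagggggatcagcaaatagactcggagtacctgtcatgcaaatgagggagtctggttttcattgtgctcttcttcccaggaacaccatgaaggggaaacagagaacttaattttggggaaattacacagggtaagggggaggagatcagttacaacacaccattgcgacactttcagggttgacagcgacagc
Il1rn, chr2:24345310-24345339, + strand: ggaaatatgaGGGTTTTTCCgcttctgaca
Socs3, chr11:117969501-117969530, - strand: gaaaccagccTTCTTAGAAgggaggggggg
Il1r1, chr1:40224937-40224966, + strand: cctggcacgtTTGCTGAAtgcttctggctt
The motifs searched on both strands were TTCNNNGAA for STAT factors, TTNNGCAA for C/EBP factors and a motif for NF-kB of 10 positions, of which 3 take any base. Windows of 250 bases were available for 9 of the 10 genes, 12 windows in all, and *Cebpd* had none. The NF-kB motif began 51 bases before the third annotated start of *Il1rn*, the STAT motif 154 bases before the start of *Socs3*, and the C/EBP motif of *Il1r1*, read on the other strand, 133 bases before its first start. Of the 32851 windows of the same length in the table, 7.02% hold the STAT motif, 9.56% the C/EBP motif and 4.11% the NF-kB motif. The other 6 genes with a window held none of the 3 patterns, which says only that these letters are not in their windows.

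Of the 10 genes, *Il1rn*, which encodes the IL-1 receptor antagonist, had the largest difference between LIRKO and Flox liver, and the receptors, kinases and transcription factors had smaller ones. *Il1rn* read 2.24-fold higher in LIRKO liver (adjusted p = 0.0643 from limma, above the threshold of 0.05), and its 3 LIRKO arrays lay above its 3 Flox arrays. With limma, 0 of the 14 probe sets were higher and 0 lower at an adjusted p under 0.05, against 0.0725% and 0.0564% of all probe sets. At an unadjusted p under 0.05, 1 probe set was higher (*Il1rn*) and 1 was lower (99100_at of *Stat3*), where 7.43% of all probe sets were higher and 13.5% were lower. The methods' t-test gave 0 after Benjamini-Hochberg adjustment and 1 before it. The LIRKO arrays all lay above the Flox arrays for 1 member probe set and all below for 0, shares that are 9.84% and 14.9% over the whole array. The log2 fold change was above 0 for 5 probe sets and below 0 for 9, with a median of -0.11 against 0.01 for all probe sets. In liver tissue, fewer cells of a type and less RNA per cell cannot be told apart.

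**Figure D1:**
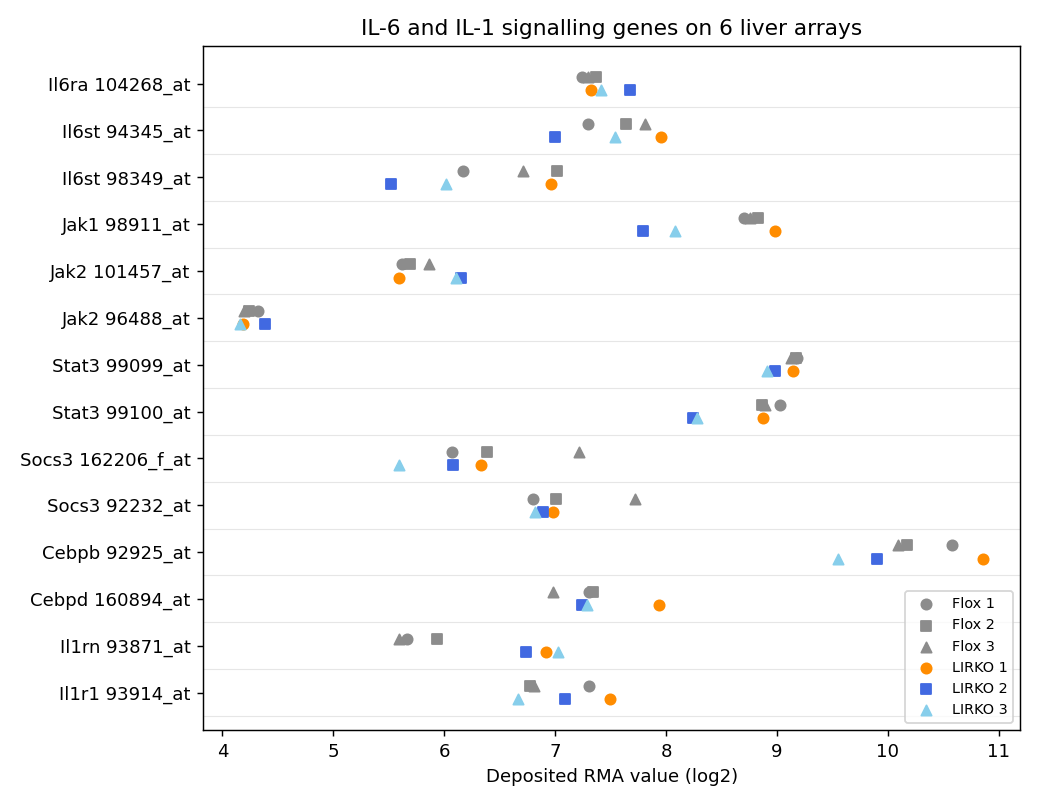
Deposited value (log2, horizontal axis) of each of the 14 probe sets on the 6 arrays, with grey symbols for Flox, an orange circle for LIRKO 1 and blue symbols for LIRKO 2 and LIRKO 3. The groups are separate for *Il1rn* alone, at 5.59 to 5.93 in Flox and 6.73 to 7.03 in LIRKO, and overlap for the other 13.

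None of the receptor genes passed the test in either direction. *Il6ra*, the IL-6 binding chain, read 7.24, 7.36 and 7.29 on the Flox arrays and 7.32, 7.67 and 7.42 on the LIRKO arrays. The ranges overlapped because LIRKO 1 lay within Flox. The log2 fold change was 0.17 (95% interval -0.14 to 0.48, adjusted p = 0.428 from limma). For *Il6st*, which encodes gp130, 94345_at read 7.29, 7.64 and 7.81 in Flox against 7.95, 7.00 and 7.54 in LIRKO, with LIRKO 1 highest and LIRKO 2 lowest of all 6 arrays. The second probe set, 98349_at, read 6.17, 7.01 and 6.71 in Flox against 6.97, 5.52 and 6.02 in LIRKO, so that LIRKO 1 was within the Flox range and the other LIRKO arrays lay below it. Their log2 fold changes were -0.08 (95% interval -0.70 to 0.54, adjusted p = 0.853) and -0.46 (95% interval -1.39 to 0.46, adjusted p = 0.461). *Il1r1*, the signalling receptor for IL-1, read 7.31, 6.77 and 6.81 in Flox and 7.50, 7.08 and 6.67 in LIRKO. LIRKO 1 was the highest array and LIRKO 3 the lowest, and the log2 fold change was 0.12 (95% interval -0.47 to 0.70, adjusted p = 0.775).

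The kinase genes had no difference past the threshold, and *Jak1* had LIRKO 1 and the other LIRKO arrays on opposite sides of Flox. *Jak1* read 8.70, 8.83 and 8.75 in Flox, a range of only 0.127, and 8.98, 7.80 and 8.08 in LIRKO. LIRKO 1 lay above every Flox array and the other LIRKO arrays lay below every Flox array. The log2 fold change was -0.48 (95% interval -1.17 to 0.22, adjusted p = 0.333), and the medians of all probe sets in its level group were -0.02, -0.47 and -0.38 on LIRKO 1 to LIRKO 3. After centring within level groups its log2 fold change was -0.18. *Jak2* was read by 101457_at at 5.62, 5.69 and 5.86 in Flox and 5.59, 6.15 and 6.11 in LIRKO. Here LIRKO 1 was the lowest array and the other LIRKO arrays were the highest, with a log2 fold change of 0.23 (95% interval -0.20 to 0.65, adjusted p = 0.433). Its other probe set, 96488_at, whose Flox level stood at percentile 12.4 of all probe sets, read 4.19 to 4.32 in Flox and 4.16 to 4.38 in LIRKO, a log2 fold change of -0.01 (95% interval -0.29 to 0.27).

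*Stat3*, the factor that carries the IL-6 signal to the nucleus, had the only member probe set that was lower at an unadjusted p. On 99100_at it read 9.02, 8.86 and 8.89 in Flox and 8.87, 8.24 and 8.28 in LIRKO, so that LIRKO 1 lay within the Flox range. The log2 fold change was -0.47 (95% interval -0.92 to -0.01, adjusted p = 0.238 from limma), and after centring within level groups it was -0.17. The second probe set, 99099_at, read 9.18, 9.17 and 9.13 in Flox and 9.15, 8.98 and 8.91 in LIRKO, a log2 fold change of -0.15 (95% interval -0.42 to 0.13, adjusted p = 0.433). LIRKO 2 and LIRKO 3 lay below Flox by 0.18 and 0.25 there, while the brightest level group, to which this probe set belongs, was lower by more. After centring its log2 fold change turned to 0.52 (adjusted p = 0.224 from limma). Its Flox level stood at percentile 90.0 of all probe sets, at the lower edge of that group. The mean Flox level of the group was 10.43, against 9.16 for this probe set, so the value after centring depends on where the edge lies. Quantile normalization gave 0.15 and cyclic loess 0.25. *Cebpb*, a C/EBP factor of the acute phase, read 10.57, 10.17 and 10.09 in Flox and 10.86, 9.90 and 9.54 in LIRKO. LIRKO 1 was the highest array and the other LIRKO arrays the lowest, for a log2 fold change of -0.18 (95% interval -0.98 to 0.62, adjusted p = 0.749). It too belongs to the brightest level group, and it turned to 0.28 after quantile normalization, 0.43 after cyclic loess and 0.49 after centring (95% interval 0.05 to 0.93, adjusted p = 0.212). *Cebpd*, which IL-6 and IL-1 induce in liver, read 7.30, 7.34 and 6.98 in Flox and 7.93, 7.24 and 7.29 in LIRKO. Its log2 fold change of 0.28 (95% interval -0.24 to 0.80, adjusted p = 0.426) came mostly from LIRKO 1, which lay 0.73 above the Flox mean.

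Of the inhibitors, *Il1rn* read higher on every LIRKO array and *Socs3* varied widely among the Flox arrays. *Il1rn* read 5.67, 5.93 and 5.59 in Flox and 6.92, 6.73 and 7.03 in LIRKO. Every LIRKO array lay above every Flox array, by 1.19, 1.00 and 1.30 over the Flox mean, while the medians of probe sets at its level were -0.02, 0.16 and 0.09. The means were 5.73 ± 0.178 and 6.89 ± 0.149 (SD, n = 3 each), a log2 fold change of 1.16 (standard error 0.14, 95% interval 0.82 to 1.50). Its p of 9.83e-05 from limma ranked 19 among 12422 and gave an adjusted p of 0.0643, above the threshold of 0.05. Over 15 alternatives the log2 fold change ran from 1.09 to 1.26 and the adjusted p from 0.000192 to 0.524, with 6 past the threshold and 9 not. After centring within level groups *Il1rn* was higher at an adjusted p of 0.0405, as were 0.177% of all probe sets. The Flox level stood at percentile 33.1 of all probe sets. *Socs3*, the feedback inhibitor that STAT3 induces, read 6.07, 6.39 and 7.22 in Flox and 6.33, 6.08 and 5.59 in LIRKO on 162206_f_at. Flox 3 was the highest array, the Flox range of 1.15 was wider than the difference, and the log2 fold change was -0.56 (95% interval -1.33 to 0.21, adjusted p = 0.314). The other probe set, 92232_at, read 6.80, 7.01 and 7.72 in Flox and 6.98, 6.89 and 6.82 in LIRKO, with Flox 3 again highest and a log2 fold change of -0.28 (95% interval -0.85 to 0.29, adjusted p = 0.472).

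On LIRKO 1, the LIRKO array without the shift at high level, several members lay on the other side of Flox from LIRKO 2 and LIRKO 3. It lay above all 3 Flox arrays for 6 probe sets (*Il6st* 94345_at, *Jak1*, *Cebpb*, *Cebpd*, *Il1rn* and *Il1r1*), below all 3 for both probe sets of *Jak2*, and within the Flox range for the other 6. Over the whole array, 24.7% of probe sets lay above and 30.9% below on LIRKO 1. LIRKO 1 had a median difference of the members from the Flox mean of 0.12, LIRKO 2 of -0.23 and LIRKO 3 of -0.27. With LIRKO 1 as the only LIRKO array and the spread taken from Flox alone, *Il1rn* was the only member that passed, at 1.19 (adjusted p = 0.0118 from limma), among 0.725% of all probe sets that did so in either direction. *Cebpd* had 0.73 (adjusted p = 0.118), *Cebpb* 0.58 (adjusted p = 0.302) and *Il1r1* 0.53 (adjusted p = 0.428) in the same fit. Without LIRKO 1, 22.4% of all probe sets passed as higher and 26.7% as lower, and of the 14 member probe sets 2 were higher and 4 lower. *Il1rn* (1.15, adjusted p = 0.000192) and *Jak2* 101457_at (0.41, adjusted p = 0.0180) were the higher ones. *Jak1* (-0.83, adjusted p = 0.000556), *Stat3* 99100_at (-0.67, adjusted p = 0.000974), *Il6st* 98349_at (-0.86, adjusted p = 0.0139) and *Cebpb* (-0.56, adjusted p = 0.0230) were the lower ones. Of these lower members, none was below all Flox arrays on LIRKO 1. The part of the shift at high level in these differences was not tested. Centring within level groups gave log2 fold changes of 0.21 for *Il6ra*, -0.04 and -0.47 for 94345_at and 98349_at of *Il6st*, and 0.11 for *Il1r1*. It gave 0.15 and -0.13 for 101457_at and 96488_at of *Jak2*, 0.32 for *Cebpd*, and -0.61 and -0.24 for 162206_f_at and 92232_at of *Socs3*. None of these members passed after centring.

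**Figure D2:**
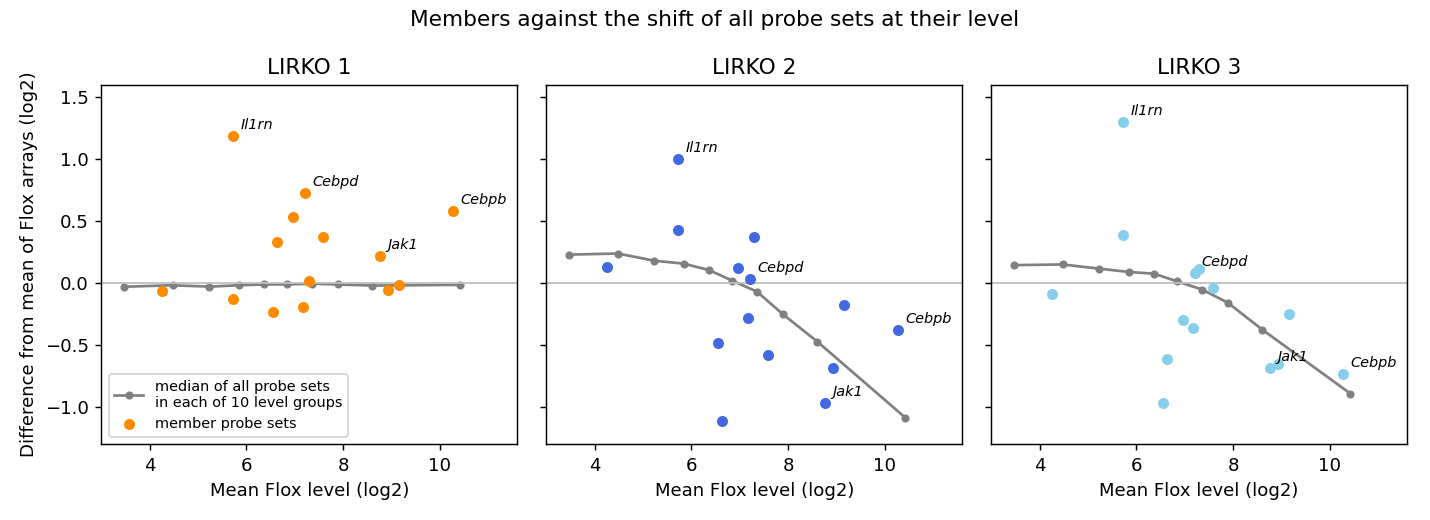
Vertical axis, how far each LIRKO array lies from the Flox mean (log2), against mean Flox level (log2, horizontal axis), with 1 panel per array; coloured points are the 14 member probe sets and the grey line is the median of all probe sets in each of 10 level groups. The line stays near 0 on LIRKO 1 and drops to -1.09 and -0.89 on LIRKO 2 and LIRKO 3, and *Il1rn* lies 1.00 to 1.30 above the Flox mean on all 3.

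**Figure D3:**
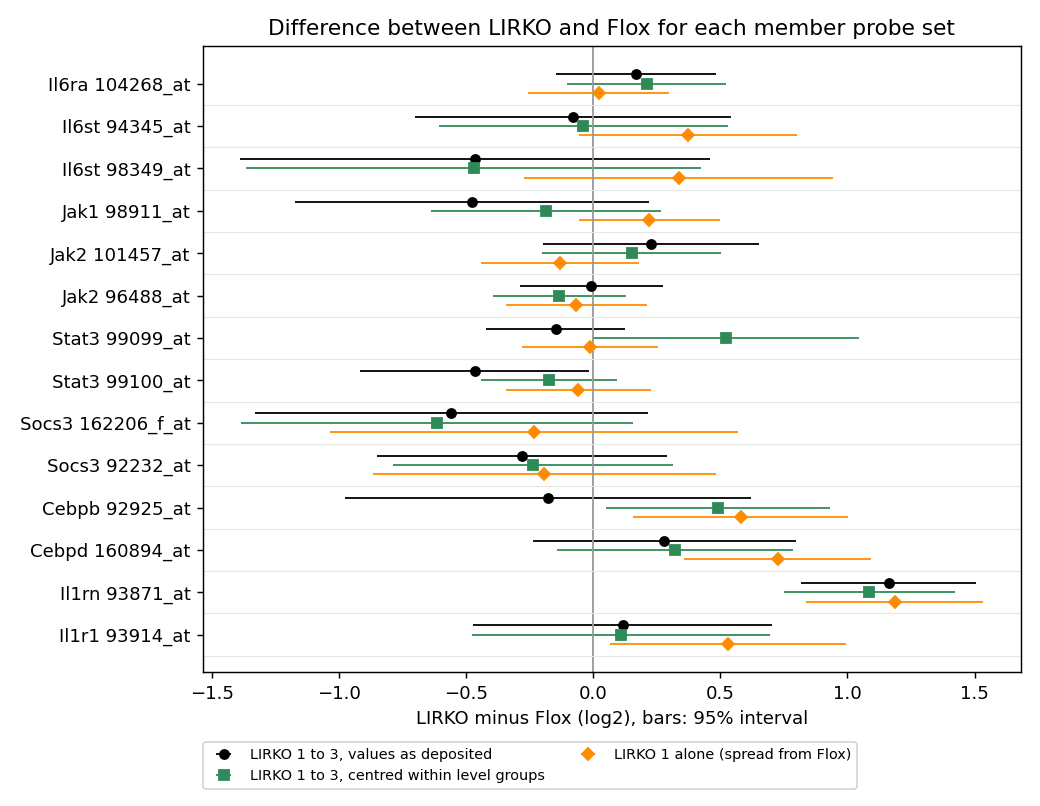
Difference between LIRKO and Flox (log2, horizontal axis) for each member probe set, with 95% intervals; black circles are the 3 LIRKO arrays as deposited, green squares are after centring within level groups, and orange diamonds are LIRKO 1 alone with the spread of Flox. As deposited, 12 intervals include 0 and those of *Il1rn* and *Stat3* 99100_at do not, and 10 of the 14 lie within 1 log2 unit of 0.

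Other genes of the same pathways, taken from 8 lists of 97 genes, had no gene past the threshold in either direction. Of the 73 genes measured, each read by its brightest probe set, limma called 0 higher and 0 lower at an adjusted p under 0.05, and 4 higher and 9 lower at an unadjusted p. These are 17.8% of them, against 22.7% of all genes. Among 7 ligands and receptors of the IL-6 family, with a median of 0.16, *Lifr*, the receptor chain for leukaemia inhibitory factor, differed by -1.62 on the log2 scale (adjusted p = 0.237), and *Il27ra*, a receptor chain for IL-27, by 0.73 (adjusted p = 0.237). On the brightest of its 5 probe sets, *Lifr* read 11.27 on LIRKO 1 and 8.67 and 9.07 on LIRKO 2 and LIRKO 3. The Flox arrays read 11.20 to 11.44, so that LIRKO 1 was within the Flox range. The log2 difference of this probe set was -0.95 after centring, and the values of the other *Lifr* probe sets are not given here. *Il6* itself read 3.39 ± 0.183 in Flox and 3.46 ± 0.255 in LIRKO (SD, n = 3 each). The 6 other JAK and STAT genes had a median of -0.29. LIRKO 1 had a list median of -0.01, against -0.46 for LIRKO 2 and -0.32 for LIRKO 3. *Jak3* at -0.45 and *Stat5a* at -0.36 had the smallest p of this list. The LIRKO arrays lay all below Flox for these 2 genes and all above for 0 of the list. Over all probe sets these shares were 14.9% and 9.84%. After centring *Jak3* and *Stat5a* were at -0.30 and -0.06. Of 11 other inhibitors of this pathway, with a median of 0.18, *Socs2*, a feedback inhibitor of growth hormone signalling, differed by 1.15 (adjusted p = 0.237), and *Pias3*, an inhibitor of STAT3, by -0.66. On LIRKO 1 alone *Socs2* was the only gene of the 8 lists that passed, at 1.74 (adjusted p = 0.0271). The 6 genes of the Ras-MAPK branch had a median of -0.08, with the adaptor genes *Shc1* at -0.40 and *Grb2* at 0.33. On the IL-1 side, 9 ligands and receptors had a median of 0.06, with *Il18* at -0.28 and the decoy receptor *Il1r2* at 0.28. The IL-1 genes *Il1a* and *Il1b* had 0.25 (adjusted p = 0.405) and 0.06 (adjusted p = 0.800). Of 20 genes from the IL-1 receptor to NF-kB, 15 were below 0, with a median of -0.23 that was -0.01 on LIRKO 1 and -0.11 after centring, and *Tollip*, an inhibitor of this branch, had -0.59 and the NF-kB subunit gene *Relb* 0.45. In the C/EBP family *Cebpa*, a factor of the differentiated hepatocyte, had -1.16 (adjusted p = 0.237), -0.33 on LIRKO 1 and -0.49 after centring, and *Ddit3*, a stress-induced member, had 0.59. The third measured gene brought the median of this family to -0.43, or to 0.14 on LIRKO 1. On that array *Il27ra*, *Pias3*, *Relb* and *Ddit3* differed from the Flox mean by 0.15, -0.14, 0.03 and 0.14. Of 11 immediate targets of STAT3, with a median of -0.05, *Bcl6* had -0.66 and *Ier3* had 0.84, and neither passed.

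Acute phase genes, the targets of these pathways in the liver, had calls in 1 direction. Of 23 measured, 3 passed as lower on the log2 scale, as *Saa2* fell by 4.45, *Lcn2* fell by 4.46 and *Apcs* fell by 2.98 (adjusted p = 0.00145, 0.0257 and 0.0403 from limma). *Saa2* and *Lcn2* have 2 probe sets each, of which only the brightest is given here, and *Saa1* was not measured by a probe set of its own. *Lcn2* varied among the Flox arrays, at 11.36, 9.92 and 9.85, and read 5.94, 5.93 and 5.87 in LIRKO. No acute phase gene passed as higher, and of all 8251 genes 0.0606% passed as higher and 0.0606% as lower. The median over all 23 was -1.43, -0.77 after centring, or -0.41 on LIRKO 1, where 20 of 23 lay below the Flox mean. *Saa2*, *Lcn2* and *Apcs* had -3.78, -3.80 and -2.31 after centring. Their median Flox level lies in the brightest level group. For comparison, the median over all genes was -0.01. On LIRKO 1 alone the differences of *Saa2*, *Lcn2* and *Apcs* were -4.39, -4.44 and -2.36, and those of the 14 member probe sets on that array ran from -0.23 for *Socs3* 162206_f_at to 1.19 for *Il1rn*. These lists were chosen with results on these arrays known.

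**Figure D4:**
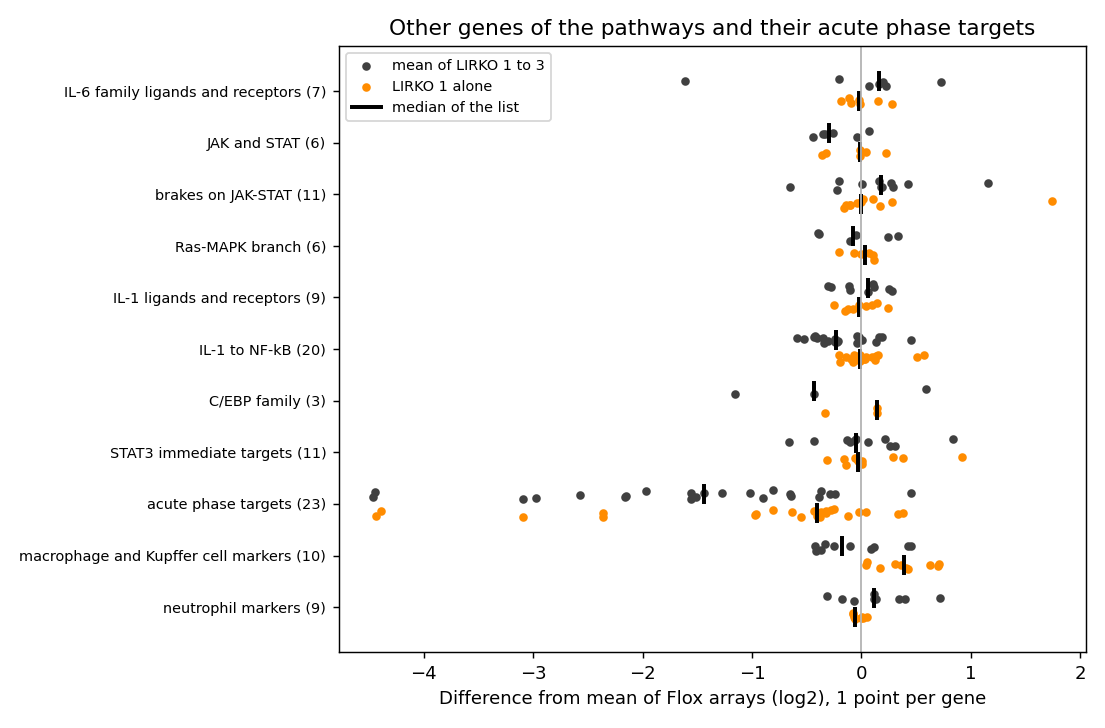
Horizontal axis, log2 difference of each measured gene from its Flox mean, in 8 lists of signalling genes, the acute phase targets and markers of macrophages and neutrophils, with the number of genes in brackets; dark points average the 3 LIRKO arrays, orange points show LIRKO 1, and a black bar is the median of its list. The signalling medians lie between -0.43 and 0.18, or between -0.04 and 0.14 on LIRKO 1. That for the acute phase targets lies at -1.43, or at -0.41 on LIRKO 1.

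Macrophages and neutrophils also express *Il1rn*, and their markers are therefore given beside it. Of 10 macrophage and Kupffer cell markers, 0 passed, 0 had groups that did not overlap, and the median was -0.18. On LIRKO 1, 10 of 10 were above the Flox mean, with a median of 0.38, and on LIRKO 2 and LIRKO 3 the medians were -0.71 and -0.16. Their summed linear level ran from 1886 to 3029 on the Flox arrays and from 1740 to 3320 on the LIRKO arrays, with LIRKO 1 the highest. Of these markers, 4 were above 0 and 6 below. The smallest p belonged to *Cd14*, a co-receptor for bacterial lipopolysaccharide, at 0.45 (adjusted p = 0.239), and to *Adgre1*, a surface receptor of macrophages, at 0.42 (adjusted p = 0.304). Their differences on LIRKO 1 were 0.04 and 0.31. For 9 neutrophil markers, 0 passed and the median was 0.11, or -0.06 on LIRKO 1, with summed levels of 953 to 1012 in Flox and 959 to 1122 in LIRKO. Of these, 6 were above 0 and 3 below. The LIRKO arrays lay all above the Flox arrays for 1, *Ngp* (0.34), and all below for 1, *S100a9* (-0.31). Over the whole array these shares were 9.84% and 14.9%, and on LIRKO 1 *Ngp* and *S100a9* had 0.05 and -0.08. *Cxcr2*, a chemokine receptor of neutrophils, had 0.72 (adjusted p = 0.238), with 4.60 on LIRKO 1 within its Flox range of 4.50 to 4.70, and 5.53 and 5.82 on LIRKO 2 and LIRKO 3. Of the markers of other cells, 8 for T, B and NK cells had a median of 0.24, 6 for endothelial cells one of 0.08 and 6 for stellate cells one of 0.15, and 0 of these passed. In turn these medians were 0.01, 0.11 and -0.09 on LIRKO 1, 0.31, 0.01 and 0.16 on LIRKO 2, and 0.35, 0.14 and 0.28 on LIRKO 3. The smallest p of these markers were those of *Cd79a* (0.37) and *Ms4a1* (0.35) of B cells, *Cdh5* (0.53) and *Tie1* (-0.21) of endothelium, and *Des* (0.45) and *Col3a1* (-0.90) of stellate cells. These 6 were picked by their p. For 5 of them, all but *Tie1*, the LIRKO arrays lay all above or all below Flox. Over the full lists they lay all above for 2 of 8, 1 of 6 and 1 of 6 genes in turn, and all below for 1, *Col3a1*. The shares over all probe sets were 9.84% above and 14.9% below. The part of other cell types in the value of *Il1rn* was not tested.

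The probe sets whose differences from the Flox mean on the 6 arrays were nearest to those of *Il1rn* were 102820_at of *Cyp2b13*, 95705_s_at of *Actb* and 100302_at of *Maff*. They lay at a mean absolute distance of 0.0940, 0.131 and 0.139 on the log2 scale. *Cyp2b13*, a cytochrome P450 gene, read 5.78, 5.87 and 5.80 in Flox and 6.80, 6.79 and 7.15 in LIRKO, a log2 fold change of 1.10 (adjusted p = 0.0665 from limma). *Actb*, which encodes beta-actin, had 1.01 (adjusted p = 0.237), and *Maff*, a small MAF factor gene, had 0.92 (adjusted p = 0.158). For 162206_f_at of *Socs3*, which had the largest log2 fold change below 0, the nearest was its own second probe set 92232_at, at 0.177, followed by *Lyrm2* at 0.208 and *Foxq1* at 0.214. These distances cover only 6 arrays in 2 groups, which every profile shares.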

How the data were processed

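Total RNA from liver was read on 6 MG-U74A-v2 arrays of Affymetrix, 3 for each group. The authors processed the images in R with affy and limma and deposited log2 values, 1 for each probe set on each array, after robust multichip averaging (RMA, per the labels and the methods, with no version given). Joint normalization of all 6 arrays is neither stated nor denied there. The raw images were not used here, and values were taken as deposited.

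Of 12488 probe sets, 66 array controls were left out. Gene symbols came from the platform annotation, in which 10833 of 12422 probe sets carry 1 symbol, 396 several and 1193 none, and 10817 of the 10833 were found by Entrez ID. LIRKO was compared with Flox over all 12422 probe sets with limma 3.58.1 (lmFit, eBayes) in R 4.3.3, with Benjamini-Hochberg adjustment, two-sided, at 0.05, as the study's methods name. Of several probe sets of a listed gene, the brightest on average over the 6 arrays was used. The test was tried on simulated data before use. No arrays held identical values.

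The members and lists were chosen with earlier results of these data known. Named genes are all members, of each list, markers included, the genes past the threshold or otherwise the 2 with the smallest p, and the 3 probe sets with profiles nearest to the member with the largest rise and to that with the largest fall. *Il6*, *Il1a*, *Il1b* and *Ngp* fall outside this rule and were chosen after their values were seen. *Insr*, *Alb* and *Tat* also fall outside it. *Insr* is named as the targeted gene, and *Alb* and *Tat* to give the measured hepatocyte markers in full. Alternatives were quantile normalization, cyclic loess, equal array medians, centring within 10 level groups, a filter at the 25th percentile, eBayes with a trend, the methods' unequal variance t-test, a replicate block, LIRKO 1 alone, averaging the probe sets of a gene and leaving out each array. Python 3.11.15 with pandas 2.3.3, numpy 2.4.6 and matplotlib 3.10.9 read sequences, searched motifs and drew the plots.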

Additional observations from a re-analysis of the deposited data

How the results depend on the processing

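With the replicate number as a block, 0 members passed as without it, and *Il1rn* had an adjusted p of 0.156 (0.0643 without it), so that the block changed no call among the members. It passed 11 probe sets over the whole array, against 16 without it. The deviations of same-numbered arrays had correlations of 0.32, 0.40 and 0.09 across probe sets. Those of differently numbered arrays ran from -0.37 to 0.17. The main fit took the arrays as unpaired, and these values do not settle whether same-numbered arrays belong together. The count of members past the adjusted threshold, 0 as reported, was 1 (*Il1rn*) after quantile normalization, after cyclic loess, after centring within level groups and with a trend in eBayes. Those fits passed 23, 40, 43 and 19 of all 12422 probe sets in turn, against 16 as reported. With 1 array left out the count was 0 to 6, and it was 6 without LIRKO 1, where 6095 of all probe sets passed. The count at an unadjusted p, 2 as reported, was 1 after quantile normalization, after cyclic loess, with a trend and in the methods' t-test, 4 with LIRKO 1 alone, and 1 to 7 with 1 array left out, 7 without LIRKO 1. As reported, 7.43% of all probe sets were higher and 13.5% lower at an unadjusted p under 0.05. These shares were not computed for the other fits, so the member counts there have no background to be read against. The 7 came from the fit in which 6095 of all probe sets passed the adjusted threshold. Groups did not overlap for 1 member probe set as reported, where 9.84% of all probe sets lay all above Flox and 14.9% all below. The count was 2 with equal array medians and 3 after quantile normalization or cyclic loess (*Il1rn* and *Cebpd* higher, *Stat3* 99100_at lower). The share over all probe sets was not computed for these. LIRKO 1 lay outside the Flox range for 8, where 24.7% of all probe sets lay above it and 30.9% below. Of the 73 pathway genes, 0 passed as reported and 0 to 33 with 1 array left out, 33 without LIRKO 1. In the fit without LIRKO 1, 22.4% of all probe sets passed as higher and 26.7% as lower. Of the acute phase genes, 3 as reported, 0 passed in the methods' t-test and 1 to 21 with 1 array left out, 21 without LIRKO 1.

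Directions turned for *Cebpb* (0.28 after quantile normalization, 0.43 after cyclic loess, 0.49 after centring, 0.58 with LIRKO 1 alone, and -0.56 to 0.10 with 1 array left out) and for *Stat3* 99099_at (0.15, 0.25 and 0.52 after quantile normalization, cyclic loess and centring). With LIRKO 1 alone they turned for *Il6st* 94345_at (0.37), *Il6st* 98349_at (0.34), *Jak1* (0.22) and *Jak2* 101457_at (-0.13). With 1 array left out, *Il6st* 94345_at ran from -0.31 to 0.17, *Il1r1* from -0.090 to 0.33 and *Jak2* 96488_at from -0.078 to 0.033, and the mean of both *Jak2* probe sets was 0.11. Of 217 comparisons of a member's log2 fold change with an alternative, 187 kept direction and side of the threshold, 11 passed only under the alternative and 19 turned. The causes were not tested. The filter on dim probe sets removed *Jak2* 96488_at.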
